A study of Mus musculus with 22 samples.

Results

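The proteins of the endoplasmic reticulum (ER) that fold secreted polypeptides were followed through 10 genes, Hspa5, Hsp90b1, Hyou1, Dnajb9, Sdf2l1, Calr, Pdia4, Pdia6, Creld2 and Manf. They were chosen by name, and where a symbol is repeated in the table the copy with the highest mean was taken. All 10 of 10 were found among the 57010 genes of the table, and all 10 were among the 16756 genes that passed the filter on low values. The series measured poly(A) RNA of pancreatic islets isolated from 22 males aged 5.5 weeks, with 1 library per mouse. The age is that of the design text, and the column names of the table give 5 to 6 weeks. Mice were wild type for MafA (WT) or heterozygous for its S64F change (Het), a substitution in the transcription factor MAFA of insulin-producing beta cells. Each genotype was studied on 2 genetic backgrounds, labelled C57 and Mixed. The groups were C57 WT (5 mice), C57 Het (6 mice), Mixed WT (5 mice) and Mixed Het (6 mice). The labels name no treatment, no transgene and no strain behind the Mixed background, and males are the only sex in the series. Replicate numbers follow accession order and only name a mouse.

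Insulin is made as a precursor that enters the ER, forms disulfide bonds and folds there before export, so beta cells carry a large folding load. Chaperones of the Hsp70 and Hsp90 families hold unfolded chains, lectin chaperones hold glycoproteins, and protein disulfide isomerases form and rearrange disulfide bonds. When unfolded protein accumulates, the unfolded protein response (UPR) raises transcription of many of these genes through the factors ATF6 and XBP1, which act at promoter sequences called ER stress elements.

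That element was searched because it is a sequence through which several of these genes can be regulated together. Promoters came from RefSeq (build GRCm38.p6, an older build than the mm39 named in the submitters' processing notes) and were matched by symbol, which gave 8 of the 10 genes. Manf and Hyou1 had no entry. The ER stress element, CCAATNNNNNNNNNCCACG on either strand, was present in the 250 bases before the start of 5 of these 8 genes. Over all 32851 promoters of the same window, 37 (0.113%) held it. Because the element was chosen for its known tie to genes of this kind, these shares are a description and no test of enrichment. The 6 sites are shown 5′ to 3′ on the strand that carries the motif, with the fixed ends of the element in capitals and the spacer in lower case. Their positions are given from the first base of the RefSeq transcript.
Hspa5, chr2:34772025-34772043 (+), 65 to 47 bases before the start: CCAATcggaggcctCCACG
Hsp90b1, chr10:86705638-86705656 (-), 212 to 194 bases before the start: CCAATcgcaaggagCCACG
Hsp90b1, chr10:86705533-86705551 (+), 107 to 89 bases before the start: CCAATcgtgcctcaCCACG
Calr, chr8:84847075-84847093 (+), 162 to 144 bases before the start: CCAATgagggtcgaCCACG
Pdia6, chr12:17266491-17266509 (+), 98 to 80 bases before the start: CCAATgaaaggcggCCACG
Creld2, chr15:88819520-88819538 (-), 126 to 108 bases before the start: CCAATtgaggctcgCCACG

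The sites of Hspa5 and Pdia6 and the farther site of Hsp90b1 lay on the strand of the gene, and those of Calr and Creld2 and the nearer site of Hsp90b1 on the opposite strand. The longer stretches of Hsp90b1, with its pair of elements in opposite orientation, and of Creld2, whose level differed most between backgrounds in Het mice, show the surroundings. Both are on the strand of the gene, with the elements in capitals. An element on the opposite strand reads there as its reverse complement. Of Hsp90b1 only the part before the transcript start of another annotation, GENCODE, is shown, and that start lies upstream of the RefSeq one. The Hsp90b1 stretch is chr10:86705515-86705694 (-), from 250 to 71 bases before the RefSeq start. The Creld2 stretch is chr15:88819396-88819645 (+), the 250 bases before the start.
Hsp90b1: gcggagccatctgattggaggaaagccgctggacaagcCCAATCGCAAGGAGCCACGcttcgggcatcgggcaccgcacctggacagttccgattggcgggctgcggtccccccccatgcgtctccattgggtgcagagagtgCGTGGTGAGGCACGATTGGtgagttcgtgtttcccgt
Creld2: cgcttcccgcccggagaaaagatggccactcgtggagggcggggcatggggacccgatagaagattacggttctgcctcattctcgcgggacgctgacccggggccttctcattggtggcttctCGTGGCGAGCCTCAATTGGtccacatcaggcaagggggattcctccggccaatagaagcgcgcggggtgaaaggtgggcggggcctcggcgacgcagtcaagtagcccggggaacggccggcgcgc

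Dnajb9, Sdf2l1 and Pdia4 had no match to the full element in this window. The core CCACG alone, which forms the end of the full element, occurred in 7 of the 8 promoters (Pdia4 had none) and in 28.3% of all promoters. ER stress element II (ATTGG, any base, then CCACG, in 0.0304% of all promoters) and the unfolded protein response element (TGACGTGG, in 0.563%) were in 0 of the 8. A match is a description of the letters only, and binding was not measured in this series.

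Values are TPM, a transcript abundance unit that scales each gene by its length and each library to one common total, so levels of different genes can be compared. Because TPM holds no read depth, how deeply a library was sequenced is unknown. Between 14812 and 16133 genes reached 1 TPM in a library. Mafa was 441 ± 87.6 TPM (SD, n = 5) in C57 WT, 117 ± 23.2 (n = 6) in C57 Het, 598 ± 143 (n = 5) in Mixed WT and 152 ± 37.1 (n = 6) in Mixed Het. The 2 insulin genes summed to a mean of 393300 TPM in C57 WT, 315600 in C57 Het, 398700 in Mixed WT and 274200 in Mixed Het. A lower insulin total raises the TPM of other genes, and across all genes tested the median Het minus WT difference was 0.10 in Mixed and 0.08 in C57 on the log2 scale, against -0.01 and 0.01 when libraries were scaled by the median of ratios. Defining beta-cell markers were present in every library, and of the 12 acinar markers of the exocrine pancreas Amy2b was at 0 in 1 library. In bulk RNA, fewer cells of a type and less RNA per cell cannot be told apart.

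All 10 genes were abundant islet transcripts. Ordered by mean TPM over the 22 mice, they ran from Hspa5 (1642), Calr (943) and Hsp90b1 (892) through Pdia6 (485), Sdf2l1 (385), Hyou1 (353), Creld2 (287), Dnajb9 (281) and Manf (267) to Pdia4 (177). The lowest of them stood at the percentile 97.8 of the mean TPM of all genes tested. Hspa5 was the highest of the 10 in 22 of 22 mice and Pdia4 was below Manf in 22 of 22. Hsp90b1 was above Pdia6 in 22 mice and below Calr in 19. The middle of the order was less firm, since Creld2 exceeded Dnajb9 in 12 of 22 mice and Dnajb9 exceeded Manf in 15. Together the 10 genes summed to 3992 ± 780 TPM (SD, n = 5) in C57 WT, 4757 ± 409 (n = 6) in C57 Het, 7183 ± 1276 (n = 5) in Mixed WT and 6874 ± 787 (n = 6) in Mixed Het.

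**Figure D1:**
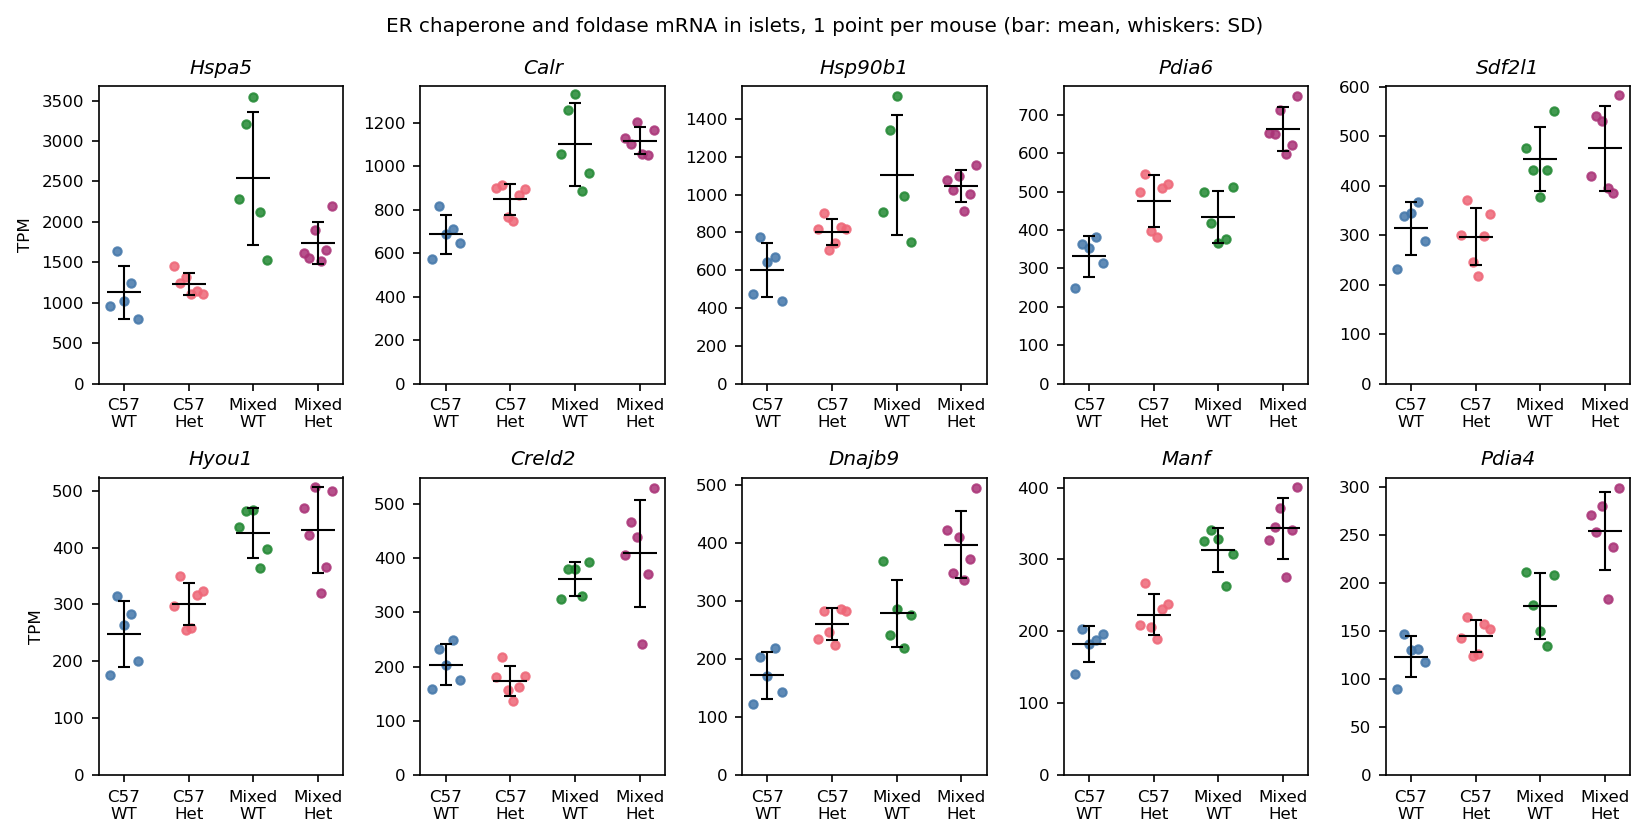
TPM of the 10 genes in each mouse (linear axes from 0, 1 point per mouse, horizontal bar for the group mean, whiskers for the SD) in the 4 groups. The 5 Mixed WT mice lay above the 5 C57 WT mice without overlap for Calr, Creld2, Dnajb9, Hyou1, Manf and Sdf2l1, and Hspa5 had its widest spread in Mixed WT, from 1525 to 3542 TPM.

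The comparison of backgrounds within a genotype asked how far these mRNAs depend on the genetic background. In WT mice all 10 genes were higher on Mixed than on C57 (limma on log2(TPM + 1), Benjamini-Hochberg adjusted p under 0.05), where 6.30% of all genes tested were called higher and 4.99% lower. In Het mice 8 of the 10 were higher on Mixed, against 13.3% of all genes tested, and 0 were lower, against 7.13%. The median log2 difference of the 10 genes was 0.745 in WT and 0.557 in Het, beside medians of 0.01 and 0.02 over all genes tested. Ranges of the 2 groups were fully apart for 6 of 10 genes in WT (2.91% of all genes were apart and higher) and for 9 of 10 in Het (6.56% of all genes). These comparisons use different mice and share no library. Background differences in a list chosen with results of these data known are a description of these genes.

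Hspa5 encodes BiP, the Hsp70 chaperone of the ER and the most abundant transcript of the group. In WT mice it measured 959, 1639, 1017, 1247 and 793 TPM on C57 and 2284, 3212, 3542, 2117 and 1525 TPM on Mixed. In Het mice it ran from 1108 (median 1194) to 1456 TPM on C57 and from 1521 (median 1631) to 2192 TPM on Mixed. The WT ranges overlapped through C57 WT replicate 2 and Mixed WT replicate 5, whereas the Het ranges were apart. The log2 difference, Mixed minus C57, was 1.15 (SE 0.19, limma adjusted p = 0.000523) in WT. In Het it was 0.49 (SE 0.18, limma adjusted p = 0.0534) and missed the threshold.

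Hsp90b1 encodes the Hsp90 chaperone of the ER, GRP94, which works downstream of BiP on a narrower set of clients. WT mice had 472, 775, 643, 672 and 435 TPM on C57 and 908, 1344, 1521, 995 and 750 TPM on Mixed. Het mice had 709 (median 819) to 904 TPM on C57 and 913 (median 1052) to 1156 TPM on Mixed. As for Hspa5, 1 C57 WT mouse reached into the Mixed WT range and the Het ranges were apart by a small gap. The log2 difference was 0.87 (SE 0.16, limma adjusted p = 0.00136) in WT and 0.38 (SE 0.15, limma adjusted p = 0.0773, not called) in Het.

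Hyou1 encodes a large Hsp70-like chaperone that also drives nucleotide exchange on BiP. It measured 176, 315, 264, 284 and 201 TPM in C57 WT and 436, 464, 465, 365 and 398 TPM in Mixed WT. The Het groups ran from 256 (median 307) to 350 TPM on C57 and from 321 (median 446) to 507 TPM on Mixed. The WT groups did not overlap, and in Het a single Mixed mouse, replicate 4, lay within the C57 range. The log2 difference was 0.80 (SE 0.15, limma adjusted p = 0.00104) in WT and 0.51 (SE 0.13, limma adjusted p = 0.00997) in Het.

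The BiP partners Dnajb9 and Sdf2l1 rose as well. Dnajb9 encodes a J-domain co-chaperone that directs BiP to misfolded chains and is a classical UPR target, and Sdf2l1 encodes a small ER protein that works with another J-domain co-chaperone. Dnajb9 measured 122, 204, 171, 218 and 143 TPM in C57 WT and 369, 242, 286, 219 and 275 TPM in Mixed WT, so that the groups were separated only narrowly. Het mice had 225 (median 264) to 287 TPM on C57 and 336 (median 391) to 494 TPM on Mixed. Its log2 difference was 0.70 (SE 0.15, limma adjusted p = 0.00382) in WT and 0.61 (SE 0.14, adjusted p = 0.00336) in Het.

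Sdf2l1 measured 231, 339, 345, 366 and 287 TPM in C57 WT and 477, 433, 377, 431 and 551 TPM in Mixed WT. Het mice had 218 (median 300) to 372 TPM on C57 and 385 (median 476) to 584 TPM on Mixed. All Mixed mice of a genotype were above all C57 mice of that genotype, by a narrow margin at the closest. The log2 difference was 0.54 (SE 0.15, limma adjusted p = 0.0262) in WT and 0.68 (SE 0.14, limma adjusted p = 0.00166) in Het.

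Calr encodes calreticulin, a calcium-binding lectin chaperone for glycoproteins. C57 WT mice had 574, 817, 689, 710 and 648 TPM, and Mixed WT mice had 1055, 1258, 1332, 887 and 972 TPM. Het mice had 747 (median 882) to 913 TPM on C57 and 1052 (median 1116) to 1205 TPM on Mixed. Neither genotype had overlapping backgrounds. The log2 difference was 0.67 (SE 0.11, limma adjusted p = 0.000254) in WT and 0.40 (SE 0.10, limma adjusted p = 0.00513) in Het.

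The disulfide isomerases Pdia4 and Pdia6 differed less between backgrounds in WT mice than the chaperones above by point estimate, a difference between genes that was not tested. Pdia4 measured 89.2, 147, 131, 132 and 118 TPM in C57 WT and 211, 177, 150, 134 and 208 TPM in Mixed WT. In Het the values were 124 (median 148) to 165 TPM on C57 and 183 (median 262) to 299 TPM on Mixed. The WT groups overlapped and the Het groups did not. Its log2 difference was 0.51 (SE 0.15, limma adjusted p = 0.0265) in WT and 0.80 (SE 0.13, limma adjusted p = 0.000242) in Het.

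Pdia6, which also dampens signalling of the UPR sensors, measured 248, 364, 353, 382 and 314 TPM in C57 WT and 498, 417, 366, 377 and 511 TPM in Mixed WT. Het mice had 382 (median 506) to 546 TPM on C57 and 597 (median 652) to 751 TPM on Mixed. Overlap was seen in WT and none in Het. The log2 difference of 0.39 in WT (SE 0.13, limma adjusted p = 0.0473) lay next to the threshold. In Het it was 0.49 (SE 0.11, limma adjusted p = 0.00436).

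Creld2 encodes an ER-resident protein with isomerase-like activity that is induced by ER stress. It measured 159, 232, 203, 250 and 176 TPM in C57 WT and 325, 381, 381, 330 and 393 TPM in Mixed WT. In Het it ran from 137 (median 172) to 217 TPM on C57 and from 241 (median 423) to 529 TPM on Mixed. The groups were apart in both genotypes, and the ratio of means, Mixed to C57, was 1.77 in WT and 2.36 in Het. The log2 difference was 0.84 (SE 0.16, limma adjusted p = 0.00183) in WT and 1.21 (SE 0.15, limma adjusted p = 1.25e-05) in Het.

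Manf encodes a small secreted protein that is retained in the ER, binds BiP and supports beta-cell survival. Its values were 140, 204, 182, 188 and 196 TPM in C57 WT and 326, 341, 329, 263 and 308 TPM in Mixed WT. Het mice had 189 (median 220) to 267 TPM on C57 and 275 (median 343) to 401 TPM on Mixed. No mouse crossed between backgrounds in either genotype. The log2 difference was 0.79 (SE 0.11, limma adjusted p = 9.51e-05) in WT and 0.62 (SE 0.10, limma adjusted p = 0.000208) in Het.

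The calls for Hspa5, Hsp90b1, Hyou1, Dnajb9, Calr, Creld2 and Manf in WT mice held under every other setting and on leaving out any mouse, and those for Pdia6, Pdia4 and Sdf2l1 did not. The log2 difference of Pdia6 stayed between 0.32 and 0.39 over the 10 other settings, of which 8 lost the call (limma adjusted p up to 0.15), and between 0.29 and 0.45 on leaving out 1 mouse. The call was lost on leaving out 14 of the 22 mice, among them 8 Het mice that leave the difference itself unchanged. Pdia4 lost it without C57 WT replicate 1 or 5 or Mixed WT replicate 1, 2 or 5 (limma adjusted p from 0.0519 to 0.0821). Its difference was 0.42 with the acinar score in the model (limma adjusted p = 0.0922) and 0.51 both without the filter (adjusted p = 0.0984) and with only the WT groups fitted (adjusted p = 0.0965). Sdf2l1 lost its call without C57 WT replicate 1 or 5 or Mixed WT replicate 1 or 5 (limma adjusted p from 0.0549 to 0.0804). Its difference was 0.52 with the acinar score (limma adjusted p = 0.0594), 0.43 with sample weights (adjusted p = 0.0815) and 0.54 without the filter (adjusted p = 0.098). In Het mice Hspa5 and Hsp90b1 were called when only the 2 Het groups were fitted (limma adjusted p = 0.00367 and 0.00263) and with sample weights (adjusted p = 0.00582 and 0.00902). Hspa5 was also called, at the same difference of 0.49, without C57 WT replicate 2 or 5 or Mixed WT replicate 2, 3 or 5 (limma adjusted p from 0.0279 to 0.0485), mice that are not in this comparison. Hyou1 in Het mice missed the threshold with quantile normalization (limma adjusted p = 0.0517).

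**Figure D2:**
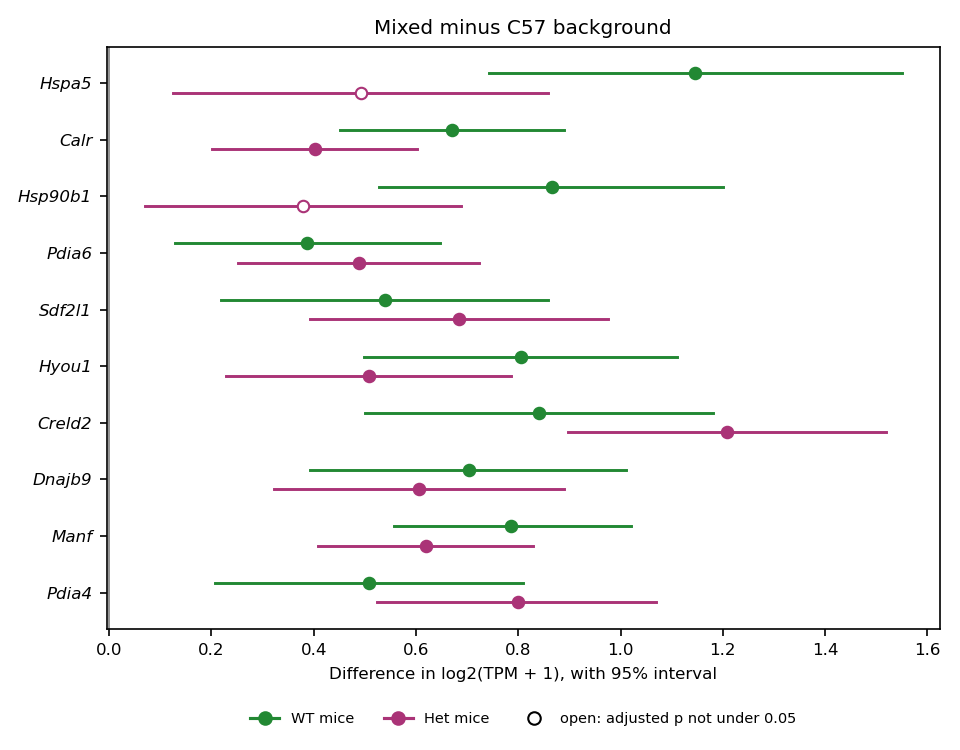
Log2 difference (Mixed minus C57) of each of the 10 genes with its interval of 95% from limma, in WT mice and in Het mice. All 10 estimates lay above 0 in both genotypes, from 0.39 (Pdia6) to 1.15 (Hspa5) in WT and from 0.38 (Hsp90b1) to 1.21 (Creld2) in Het.

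The comparison of genotypes asked how the MafA change altered these mRNAs within a background. Het mice on C57 had 5 of the 10 genes higher and 0 lower, beside 26.4% of all genes called higher and 11.6% lower. Het mice on Mixed had 3 higher and 1 lower, beside 30.7% and 13.5% of all genes, a share close to the background. On C57 the groups were apart for 2 genes (Dnajb9 and Pdia6) where 15.9% of all genes were apart and higher, and on Mixed for 1 (Pdia6) where 17.9% were. The median of the 10 genes was 0.299 on C57 and 0.09 on Mixed. Genotype and background comparisons share groups of mice.

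Pdia6 was the member that rose most in Mixed Het mice and Dnajb9 rose in both backgrounds. For Pdia6 the highest C57 WT mouse (381.5 TPM) was just below the lowest C57 Het mouse (382.2 TPM), and on Mixed the 5 WT mice ended at 511 TPM where the 6 Het mice began at 597 TPM. Its log2 difference, Het minus WT, was 0.52 (SE 0.12, limma adjusted p = 0.00185) on C57 and 0.62 (SE 0.12, limma adjusted p = 0.000262) on Mixed. Dnajb9 differed by 0.62 (SE 0.14, limma adjusted p = 0.00205) on C57, where the highest WT mouse had 218 TPM and the lowest Het mouse 225 TPM. On Mixed it differed by 0.52 (SE 0.14, limma adjusted p = 0.00568), and the ranges overlapped. With the acinar score in the model the difference of Dnajb9 was 0.47 on C57 (limma adjusted p = 0.0562) and 0.41 on Mixed (adjusted p = 0.0514), and with quantile normalization it was 0.30 on Mixed (adjusted p = 0.0949).

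The remaining C57 calls were Hsp90b1, Calr and Manf. Hsp90b1 rose by 0.45 (SE 0.16, limma adjusted p = 0.026), Calr by 0.31 (SE 0.10, adjusted p = 0.0196) and Manf by 0.30 (SE 0.11, adjusted p = 0.0323). These 3 calls were lost under each of the 3 other scalings, without the filter on low values, with the acinar score as a covariate and without C57 WT replicate 1 (limma adjusted p = 0.0682 for Calr, 0.0809 for Hsp90b1 and 0.122 for Manf). Hsp90b1 was also lost without C57 WT replicate 5 (limma adjusted p = 0.0995) or C57 Het replicate 2 (adjusted p = 0.0562), and Manf without C57 Het replicate 2, 5 or 6 (adjusted p from 0.0586 to 0.0848). Hyou1 was 0.30 (limma adjusted p = 0.0951), Pdia4 0.24 (adjusted p = 0.184), Hspa5 0.16 (adjusted p = 0.526), Sdf2l1 -0.08 (adjusted p = 0.687) and Creld2 -0.23 (adjusted p = 0.261), none of them called, and Hyou1 was called without C57 WT replicate 2 (adjusted p = 0.0302). The acinar marker sum ranged from 226 to 419 TPM in C57 WT and from 289 to 1747 TPM in C57 Het, with 10 of 11 acinar markers called higher. With the acinar score in the model 1 of the 10 genes stayed called on C57. Of all 16756 genes tested 3445 instead of 6362 were then called, so calls were lost widely. The markers of other cell types are given after the Mixed comparison.

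On the Mixed background the calls went in both directions, as they did over all genes tested (30.7% higher and 13.5% lower). Pdia4 was 0.53 higher in Het mice (SE 0.14, limma adjusted p = 0.00412), with WT mice up to 211 TPM and Het mice from 183 TPM. Hspa5 was lower in Het mice, with a difference of -0.49 (SE 0.19, limma adjusted p = 0.0352), from a mean of 2536 ± 826 TPM (SD, n = 5) to 1736 ± 260 (n = 6). The ranges overlapped, and WT replicates 2 and 3 were the highest mice. The difference was -0.49 without the filter on low values (limma adjusted p = 0.125) and when only the Mixed groups were fitted (adjusted p = 0.0586), and -0.48 with the acinar score as a covariate (adjusted p = 0.0924), so the call was lost at about the same size. It was also lost without Mixed Het replicate 1, 2, 4 or 5, at differences of -0.48 to -0.46 (limma adjusted p from 0.0578 to 0.066). Without Mixed WT replicate 2 the difference was -0.39 (limma adjusted p = 0.106), and without replicate 3 it was -0.36 (adjusted p = 0.129). The other 6 genes lay between -0.03 (Hsp90b1) and 0.14 (Creld2), with limma adjusted p from 0.343 to 0.983 and signs that depend on the scaling for Calr, Creld2, Hyou1, Manf and Sdf2l1.

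Markers of several cell types moved with the genotype on both backgrounds. Of all genes tested 30.7% were called higher and 13.5% lower on Mixed, and 26.4% and 11.6% on C57. On Mixed 3 of 5 other islet hormones were called higher in Het mice and 5 of 8 beta-cell markers lower. Gcg, the glucagon gene of alpha cells, had 19020 ± 4835 TPM (SD, n = 5) in Mixed WT and 85230 ± 14560 (n = 6) in Mixed Het. Also called higher there were 4 of 4 ductal, 7 of 7 immune, 5 of 6 mesenchymal and 3 of 11 acinar markers, and 0 of 6 endothelial markers were called. The acinar count lay near the share of all genes. The acinar sum ran from 190 to 914 TPM in Mixed WT and from 683 to 1283 TPM in Mixed Het, and the immune sum from 194 to 261 TPM and from 295 to 587 TPM. On C57 2 of 5 other islet hormones were called higher in Het mice, with Gcg at 35280 ± 15210 TPM (SD, n = 5) in C57 WT and 85100 ± 18650 (n = 6) in C57 Het. Beside the 10 acinar markers, 1 of 4 ductal markers was called higher there, near the share of all genes. Called lower were 3 of 6 endothelial and 2 of 7 immune markers, and of the 8 beta-cell markers 1 was higher and 1 lower. With the acinar score in the model 2 of the 10 chaperones and foldases were called on Mixed, where 5475 instead of 7395 of all genes tested were called. For the other cell types their part was not tested.

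Between backgrounds in WT mice 0 of 11 acinar markers were called, but 11 of 11 had a positive difference, with a median of 0.606 on the log2 scale beside 0.745 for the 10 genes. In this comparison 2 of 7 immune markers and 1 of 4 ductal markers were called lower, 1 of 8 beta-cell markers higher, and 0 mesenchymal, endothelial or other hormone markers. Of all genes tested 6.30% were called higher there and 4.99% lower. With the acinar score in the model 7 of the 10 genes were called in WT mice, the calls of Pdia4, Pdia6 and Sdf2l1 being lost. Of all genes tested 1377 instead of 1892 were then called. Between backgrounds in Het mice 6 of 7 immune, 6 of 6 mesenchymal, 3 of 6 endothelial, 2 of 4 ductal, 2 of 11 acinar and 1 of 5 other hormone markers were called higher on Mixed, and 3 of 8 beta-cell markers lower. Beside them 13.3% of all genes tested were called higher and 7.13% lower, so the acinar and hormone counts lay near the background. With the acinar score 8 of the 10 genes were called in Het mice, beside 3025 instead of 3428 of all genes tested.

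**Figure D3:**
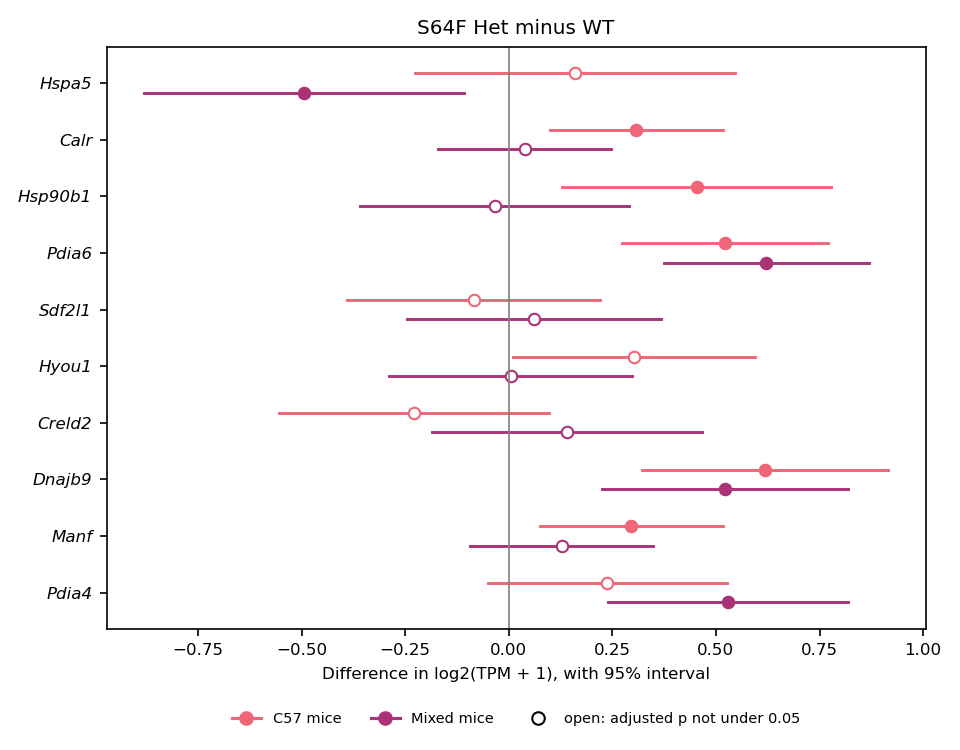
Log2 difference (Het minus WT) of each of the 10 genes with its interval of 95% from limma, on C57 and on Mixed. Pdia6 and Dnajb9 lay above 0 on both backgrounds, while Hspa5 was 0.16 on C57 and -0.49 on Mixed.

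Whether the genotype difference itself depended on the background was tested as the interaction, Mixed minus C57. It called 0 of the 10 genes (limma adjusted p), beside 7.36% of all genes tested. The estimate for Hspa5 was -0.65 (95% interval -1.20 to -0.11, limma adjusted p = 0.122) and that for Hsp90b1 was -0.49 (-0.95 to -0.03, adjusted p = 0.167). Leaving out C57 WT replicate 2 gave -0.80 (limma adjusted p = 0.0439) for Hspa5 and leaving out Mixed WT replicate 5 gave -0.82 (adjusted p = 0.0326). These were the only 2 of the 22 leave-outs that called it. Over all 22 its estimate ran from -0.82 to -0.52 (limma adjusted p up to 0.228). Over the 9 other settings it ran from -0.69 to -0.58 and was not called (limma adjusted p from 0.0982 to 0.373). At the other end Creld2 had 0.37 (-0.09 to 0.83) and Pdia4 0.29 (-0.12 to 0.70). For Pdia6, which was called on both backgrounds, it was 0.10 (-0.25 to 0.45).

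Mouse by mouse, the genes moved together within groups, some pairs far more closely than others. After subtraction of group means from log2(TPM + 1), the 45 pairs of genes had a median Pearson r of 0.694 over the 22 mice, from 0.048 to 0.907, and 31 pairs exceeded 0.5. Such values are descriptions, since the points share a library and its scaling. Hspa5 and Hsp90b1 had r of 0.876, Hsp90b1 and Calr 0.834, and Hspa5 and Calr 0.753. Pdia6 had 0.907 with Sdf2l1 and 0.895 with Pdia4, and Pdia4 and Sdf2l1 had 0.785. Between these sets of genes the values were lower, from 0.048 (Hspa5 and Pdia6) to 0.50 (Calr and Pdia4). The sets were picked from these same values, so lower values between them follow in part from that choice. These values pool the 4 groups, which did not all show the same pattern. Hyou1, Manf, Creld2 and Dnajb9 belonged to neither set, and Pdia4 with Manf (0.812) and Calr with Hyou1 (0.804) were as close as some pairs within a set. Hyou1 followed the mean of the other 9 genes most closely (0.963) and Hspa5 least (0.486).

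The split into sets was plain in the Mixed WT mice but not in every group. In Mixed Het, Hspa5 and Pdia6 were both highest in replicate 6 (2192 and 751 TPM). Both were lowest there in replicate 4 (1521 and 597 TPM). In Mixed WT, replicates 2 and 3 were highest for Hspa5 (3212 and 3542 TPM), Hsp90b1 and Calr. Replicates 1 and 5 were instead highest for Pdia4 (211 and 208 TPM), Pdia6 (498 and 511 TPM) and Sdf2l1 (477 and 551 TPM). The pro-apoptotic UPR factor Ddit3 measured 170, 236, 264, 141 and 92.8 TPM in replicates 1 to 5, and Herpud1, a UPR-induced gene of ER-associated degradation, measured 433, 618, 726, 339 and 197 TPM. In Mixed WT both were highest in the mice with the most Hspa5. In the other groups the mouse with the most Ddit3 was not the one with the most Hspa5. Ddit3 was highest in Mixed Het replicate 4 (94.2 TPM), which had the least Hspa5 of its group. On C57 it was highest in Het replicate 4 (114 TPM) and WT replicate 1 (118 TPM), where Hspa5 was 1113 and 959 TPM. Herpud1 was highest in Mixed Het replicate 6 (406 TPM), which had the most Hspa5 of its group, and on C57 in replicate 4 of each genotype.

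**Figure D4:**
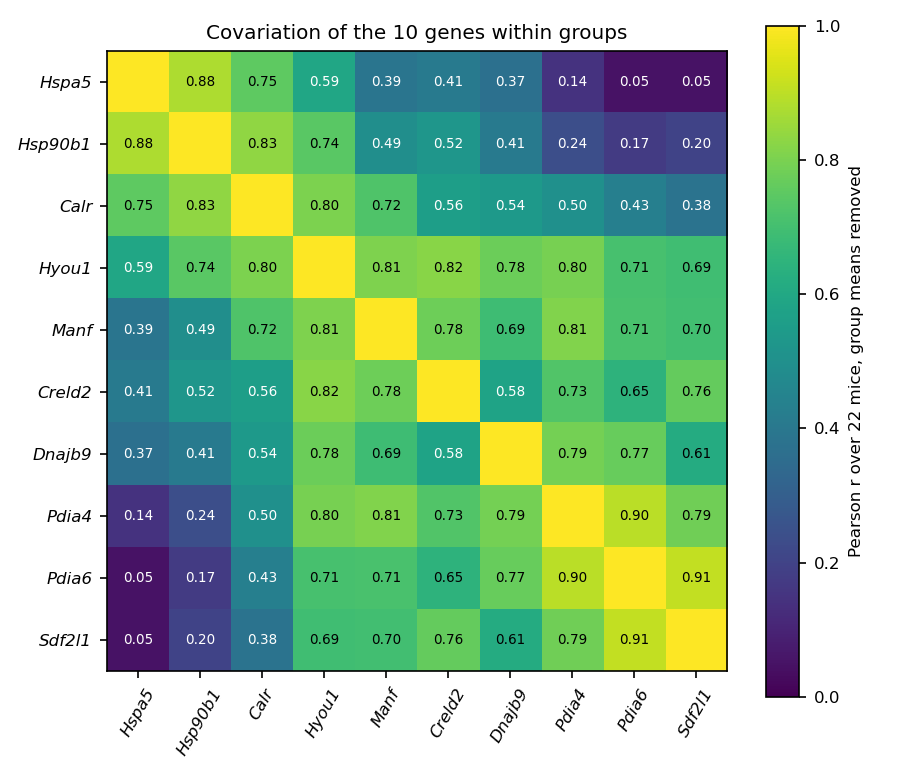
Pearson r between pairs of the 10 genes over 22 mice after subtraction of group means (colour scale from 0 to 1, value printed in each cell). Values near 0.9 are those of Hspa5 with Hsp90b1, Pdia4 with Pdia6 and Pdia6 with Sdf2l1, and the lowest value, 0.048, is that of Hspa5 with Pdia6.

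Of all other genes tested, the 10 most like the mean of the chaperones and foldases within groups were named by their r over the 22 mice. Srpr, a subunit of the signal recognition particle receptor, had r of 0.905, Dnajb11, a J-domain partner of BiP, 0.901, and Saraf, a regulator of calcium entry, 0.896. Man1a (0.889), Ergic1 (0.877), Chst11 (0.876), Tram1 (0.869), Pdia3 (0.863), Mdh1 (0.862) and Mmgt1 (0.859) followed. Without the 2 mice farthest from their group means, C57 WT replicate 1 and Mixed Het replicate 4, these values ran from 0.796 (Tram1) to 0.904 (Man1a). The mean of the ER-associated degradation list had r of 0.87 with the 10 genes, that of ER entry and glycosylation 0.771, that of other ER folding 0.736 and that of the UPR sensors and factors 0.41. Among cell-type lists the beta-cell markers had 0.541, the acinar markers 0.216 and the other 5 lists values from -0.387 (ductal) to -0.182 (other islet hormones).

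Other genes of the ER were compared in the same fit. In WT mice 4 of 28 other folding genes were higher on Mixed, with 2 of 18 genes of ER entry and glycosylation, 5 of 16 of ER-associated degradation and 5 of 13 UPR sensors and factors, and none of these lists had a gene called lower, where 6.30% of all genes were called higher. Leaving out 1 mouse moved these counts to 2 to 6, 1 to 4, 5 to 8 and 3 to 6. In Het mice the counts were 14 of 28, 15 of 18, 6 of 16 and 2 of 13, where 13.3% of all genes were called higher. Dnajb11 was the other folding gene most like the 10 in this comparison, with 84.3 ± 13.7 TPM (SD, n = 5) in C57 WT and 146 ± 10.4 (n = 5) in Mixed WT, a log2 difference of 0.79 (limma adjusted p = 0.000327). In Het it differed by 0.75 (limma adjusted p = 0.000149). Derl3, which helps move misfolded chains out of the ER, was named after its values were seen and had a mean of 16.3 ± 4.25 TPM (SD, n = 5) in C57 WT. In Mixed WT it had 46.0 ± 6.29 TPM (SD, n = 5), a log2 difference of 1.46 (limma adjusted p = 0.000305). Edem2, a mannosidase of the same pathway and likewise chosen after the fact, differed by 0.94 (limma adjusted p = 0.000508).

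In the genotype comparison on the TPM scale as deposited, the other folding genes were mostly called higher. On C57, 17 of 28 were higher and 1 lower, and on Mixed 19 were higher and 0 lower. ER entry and glycosylation had 8 of 18 higher on C57 and 13 of 18 on Mixed, and ER-associated degradation had 8 of 16 and 6 of 16 higher, with 1 lower on Mixed. Of the 13 UPR sensors and factors 8 were higher on C57, and on Mixed 4 were higher and 2 lower. Of all genes 26.4% were called higher on C57 and 30.7% on Mixed, so the Mixed counts of the degradation and UPR lists lay near the background. Median-of-ratios scaling left 11 higher and 2 lower of the other folding genes on C57 and 11 and 1 on Mixed. It left 5 higher and 1 lower of the ER entry genes on C57 and 9 and 0 on Mixed. With that scaling 6584 of the 16756 genes tested were called in either direction on C57 and 7327 on Mixed. The counts of other folding genes, called in either direction, then lay near the share of all genes. The excess of these genes over the background thus depended on the scaling.

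Among oxidative folding enzymes, Ero1a, which reoxidises the isomerases, rose by 0.96 (SE 0.14, limma adjusted p = 2.17e-05) in C57 Het mice. Prdx4, an ER peroxiredoxin, rose by 1.12 (SE 0.10, limma adjusted p = 2.81e-08) in Mixed Het mice, from 17.6 ± 2.47 TPM (SD, n = 5) to 39.5 ± 4.62 (n = 6). Sil1, a nucleotide exchange factor of BiP, rose on both backgrounds by 0.55 and 0.88 (limma adjusted p = 3.02e-05 and 3.47e-08). Tmx1, a membrane-bound isomerase, rose by 0.59 on C57 (limma adjusted p = 6.83e-05), Sdf2, a relative of Sdf2l1, by 0.52 on Mixed (adjusted p = 7.07e-07), and the isomerase Pdia5 fell by 0.45 on C57 (adjusted p = 0.00273).

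In the degradation list the lectins Os9 and Erlec1 rose by 0.46 and 0.47 on C57 and by 0.64 and 0.76 on Mixed, all called by limma. Vcp, the ATPase that pulls substrates into the cytosol, rose by 1.27 on Mixed (limma adjusted p = 8.4e-07), and the ubiquitin ligase Syvn1 fell by 0.60 there (adjusted p = 0.0151). At the entry step Spcs1, a subunit of signal peptidase, rose by 0.61 on C57 and 0.85 on Mixed (limma adjusted p = 6.71e-05 and 5.67e-07). The oligosaccharyltransferase subunits Stt3b (0.47 on C57, 0.58 on Mixed) and Dad1 (0.46 on Mixed) and the translocon-associated Ssr3 (0.64 on C57, 0.54 on Mixed) were also called higher.

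Of the UPR genes, the sensor Ern1 rose by 0.96 on C57 and 0.74 on Mixed (limma adjusted p = 0.000124 and 0.000831) and the sensor Atf6 by 0.61 and 0.41 (adjusted p = 0.00131 and 0.0171). Creb3l2 rose by 0.45 on C57 (limma adjusted p = 0.000798) and Creb3 by 0.40 on Mixed (adjusted p = 1.65e-05), both membrane-bound transcription factors. Ddit3 fell by 1.39 on Mixed (SE 0.27, limma adjusted p = 0.00028), from 181 ± 69.8 TPM (SD, n = 5) to 65.5 ± 17.3 (n = 6), and Xbp1 fell by 0.31 (adjusted p = 0.00233). On the same background Hspa5 was lower in Het mice, and Pdia4, Pdia6 and Dnajb9 were higher.

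**Figure D5:**
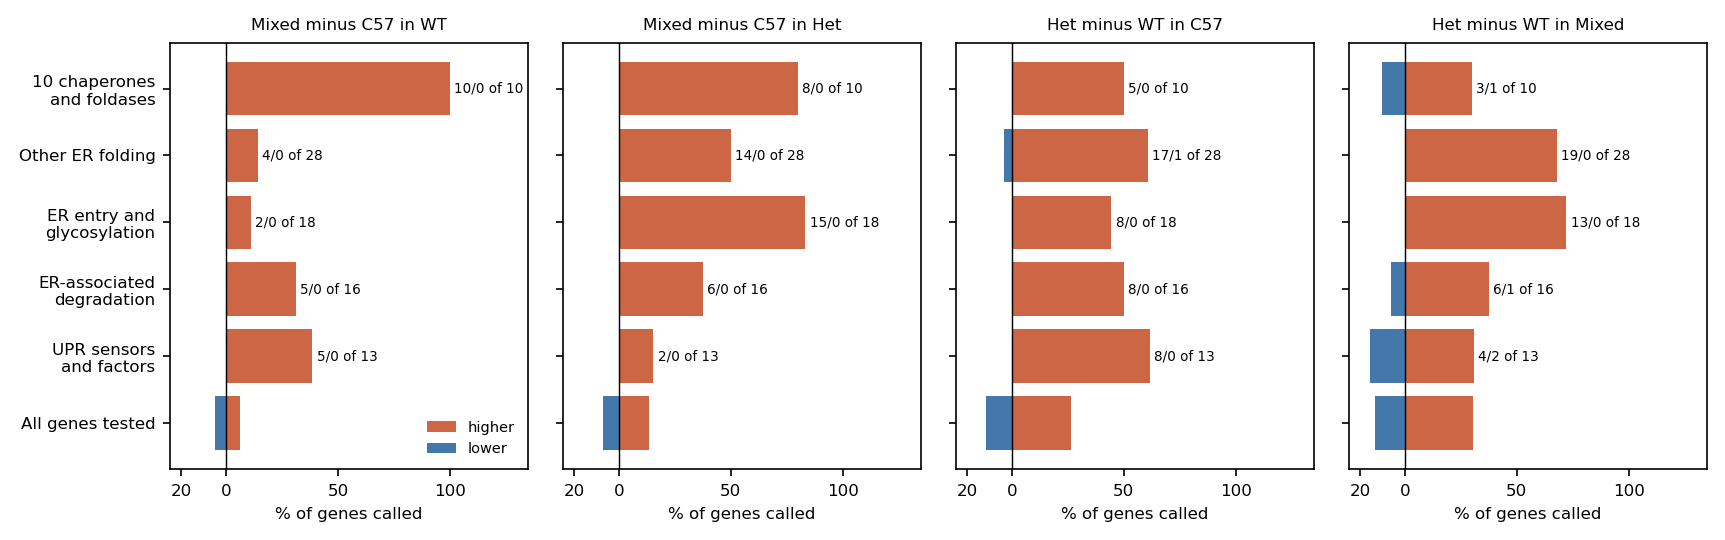
Percent of genes called higher (right of 0) and lower (left of 0) by limma in the 10 genes, in 4 other ER lists and in all genes tested, for the 4 comparisons, with counts printed as higher/lower of the number tested. In WT mice on Mixed against C57, 10 of 10 chaperones and foldases were called higher and 4 of 28 other folding genes.

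The ER stress element was also present in genes outside the 10. Among the 64 genes of the 4 ER lists with a promoter, 5 held it (Canx, Derl3, Dnajc3, Ero1b and Syvn1). Of these, Derl3 and Syvn1 were called higher on Mixed in WT mice, and Derl3 and Dnajc3 in Het mice. Of 14 tested genes outside the 10 that held it, ER lists or not, 2 were called higher in WT mice and 4 in Het mice. Of the 9 outside the ER lists 0 were called higher in WT mice and 2 in Het mice (limma). Over all genes tested 6.30% were called higher on Mixed in WT mice and 13.3% in Het mice, and sets this small allow no firm comparison with these shares. Among the 10 genes, those with the element (Hspa5, Hsp90b1, Calr, Pdia6 and Creld2) and those of the 8 without it (Dnajb9, Sdf2l1 and Pdia4) were all called higher on Mixed in WT mice.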

How the data were processed

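Islet poly(A) RNA of 22 mice was analysed from 1 table of TPM that the authors deposited, per the file headers, with 57010 gene IDs. Libraries were poly(A)-selected, per the labels' protocols. STAR 2.7.10b, MultiQC 1.7 and the build mm39 are named per the submitters' processing notes, and the counting tool and annotation are not given in the sources used here. TPM fixes each library's total, so it keeps no depth.

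The analysis used log2(TPM + 1), a scale that shrinks changes of low genes. A gene entered when 5 or more samples had a TPM of 1 or more (16756 genes). limma 3.58.1 in R 4.3.3 (lmFit on 4 group means, eBayes with trend) gave every adjusted p-value, by the Benjamini-Hochberg method over all genes tested with a threshold of 0.05. Tested on simulated data with 200 genes changed by 1 log2 unit among 16756, the fit called 94.0% of them in the WT background comparison and 96.5% in the Het one. The changed genes were drawn from those with a mean TPM of at least 5. Smaller changes, such as most of those reported here, were not simulated.

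The members and lists were chosen with earlier results of these data known. Besides the 10 genes, up to 3 genes called in each direction per ER list and genotype comparison are named, with those called in the interaction and the 10 most like the members. Not every gene this rule names is reported here. Alternatives covered the pseudocount, filter, scaling, samples fitted, an acinar covariate, moderation, sample weights and leaving out each mouse. Library numbers run in group order, so order and group cannot be told apart. Protein sequences were not analysed here.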

Additional observations from a re-analysis of the deposited data

Results flagged for a closer look

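Outside the 10 genes, 8 of the 75 genes of the ER lists differed in their genotype effect between backgrounds by the interaction test of limma (adjusted p under 0.05), with the estimate given as Mixed minus C57 on the log2 scale. Over all genes tested 7.36% were called. Leaving out 1 mouse gave from 2 to 8 calls among the other folding genes, where 7 were called, and from 0 to 3 among the UPR genes, where 1 was. The estimate was -1.36 for Ddit3, -0.70 for Ero1a, 0.36 for Erp29, 0.50 for Fkbp2, 0.51 for Pdia5, 0.38 for Ppib, 0.69 for Prdx4 and 0.33 for Sdf2. Ero1a rose in Het mice on C57 and Prdx4 rose on both backgrounds, with the larger estimate on Mixed.

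In a check of 25 genes in 4 groups for a mouse far from the others of its group, 6 of 100 combinations stood out, where chance gives about 1 in 20, and none was a member of the 10. The 15 genes beside the members were chosen after their values were seen. The mice were C57 Het replicate 2 for Herpud1 (230 TPM, lowest) and Prdx4 (34.5 TPM, highest), C57 WT replicate 4 for Derl3 (23.7 TPM, highest), C57 Het replicate 4 for Derl3 (8.80 TPM, lowest), C57 WT replicate 1 for Spcs1 (151 TPM, lowest) and Mixed Het replicate 4 for Pdia5 (26.0 TPM, lowest).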

How the results depend on the processing

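The log2 differences between backgrounds were positive for all 10 genes in both genotypes under every setting run, and between 7 and 10 genes were called in each genotype. On C57, where 5 genes were called between genotypes, 2 were called without the filter on low values, with median-of-ratios scaling, with quantile normalization and with a total that leaves out genes over 1% of a library, and 1 with the acinar score as a covariate. Leaving out 1 mouse gave from 2 (without C57 WT replicate 1) to 6 genes, with 3 without C57 Het replicate 2. On Mixed, where 4 were called, the acinar covariate left 2, beside 5475 instead of 7395 of all genes tested. The interaction, with 0 called, gave from 0 to 1 on leaving out a mouse, the 1 being Hspa5.

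Differences between genotypes on Mixed that were near 0 changed sign and were never called. Median-of-ratios scaling, quantile normalization and the total without abundant genes gave, in that order, -0.0958, -0.0783 and -0.0853 for Calr, -0.13, -0.18 and -0.12 for Hyou1, and -0.0740, -0.13 and -0.0636 for Sdf2l1. Manf was -0.0062 and -0.10 under the first 2 of these, and Creld2 was -0.0575 under quantile normalization. The acinar covariate gave -0.0481 for Calr and -0.0736 for Hyou1, and sample weights gave -0.0100 and -0.0330. Leaving out a mouse gave ranges of -0.0346 to 0.11 for Calr, -0.0490 to 0.0858 for Hyou1, -0.16 to 0.0938 for Hsp90b1 and -0.0032 to 0.13 for Sdf2l1, and -0.19 to 0.0180 for the interaction of Dnajb9. The cause was not tested. Of all genes tested, 6572 instead of 3428 were called between backgrounds in Het mice with sample weights, and 2223 with a mean TPM of at least 5, where fewer genes are tested. Between backgrounds in WT mice 831 instead of 1892 were called with only the groups compared and 1251 with a mean TPM of at least 5. Between genotypes on C57 3445 instead of 6362 were called with the acinar covariate. In the interaction 448 instead of 1233 were called without the filter and 2628 with sample weights. No paired analysis was possible because the replicate numbers follow accession order and pair no mice. Depth is unknown and sets no limit that could be computed.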
